A study of Homo sapiens with 6 samples.

Results

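The genes described here are 44 that fold, check, degrade or import proteins in the endoplasmic reticulum (ER), or sense stress there. They were taken by symbol from the gene table of a human lymphoma experiment, and all 44 were found among its 23459 rows and passed the filter on low counts, as did 12079 genes in all. The IRF4-overexpressing group is Raji cells infected with a lentivirus carrying human IRF4 cDNA. The control group is Raji cells infected with the empty vector. Raji is an established human line grown from a Burkitt lymphoma, a tumour of germinal centre B cells. Infection lasted 5 days and puromycin selection (3 µg/ml) 7 days in both groups, so both carry a lentiviral insert and drug resistance. The promoter that drives the cDNA is not named in the labels. There are 3 libraries a group, from 1 cell line. Whether each library had its own infection or culture is not in the labels, so every p-value rests on a spread between libraries that may be technical only. IRF4 is a factor that plasma cells need, and plasma cells are known for a large ER. The design asks what raised IRF4 does to expression in such a line.

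Secreted and membrane proteins enter the ER through the Sec61 channel, lose their signal peptide, fold with the help of chaperones, and leave for the Golgi. Proteins that fail to fold are sent back to the cytosol and degraded. When unfolded proteins accumulate, the sensors IRE1 (gene ERN1), ATF6 and PERK (gene EIF2AK3) start the unfolded protein response. IRE1 splices the mRNA of XBP1, ATF6 is cut to release a transcription factor, and PERK slows translation. In plasma cells XBP1 is known to drive the expansion of the secretory apparatus.

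The libraries held 33588248, 35920302 and 46210702 counts in IRF4-overexpressing replicates 1, 2 and 3, and 41510523, 27681979 and 37949438 in control replicates 1, 2 and 3. IRF4 levels were 150.0, 120.5 and 125.4 CPM (counts scaled to a common library size with edgeR's TMM factors) in IRF4-overexpressing libraries, against 1.02, 1.38 and 1.37 CPM in control libraries, as labelled (log2 fold change 6.72, SE 0.18, edgeR adjusted p = 3.79e-05). Each of 8 B cell markers was at 67.0 CPM or more in every library. Markers of T and NK, myeloid, epithelial and mesenchymal cells, 22 genes, summed to 8.56 to 14.0 CPM in IRF4-overexpressing libraries and to 3.73 to 4.61 CPM in control libraries, and CD2, GNLY, FCGR3A, EPCAM, KRT18, KRT19, COL1A2 and COL3A1 had no count in any library. Their part in the results was not tested. The libraries also separated within groups along 1 axis, computed without the 44 genes, which held 74.2% of the variance around the group means. Side A of it held IRF4-overexpressing replicates 2 and 3 with control replicate 1, and side B held IRF4-overexpressing replicate 1 with control replicates 2 and 3. Values within each side are given below for the genes that spread most along this axis.

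Most of the 44 ER genes were slightly lower with IRF4 raised, but none passed the test. Of the 44 genes, 33 had a log2 fold change below 0, against 49% of all genes tested, and their median was -0.20, against 0.01 for all genes. With library sizes alone as the scaling these medians were -0.10 and 0.10, so the distance between them, -0.21, was the same, and 26 of the 44 genes were below 0, against 37.4% of all genes. The smallest p-values were those of lumenal chaperones and folding enzymes: mean CPM of SDF2L1, PDIA4, PDIA3 and CALR was lower by 27.0%, 23.8%, 21.5% and 29.5%. Mean CPM of HSPA5, SPCS2 and P4HB was lower by more, 59.2%, 42.4% and 33.2%, with wider spread between libraries. Mean CPM of the derlins, the small Sec61 subunits and the sensors ATF6 and EIF2AK3 was above the control mean. In IRF4-overexpressing replicate 1, however, DERL2, SEC61B, SEC61G and EIF2AK3 were below it. With the library axis as a term, SEC61B and SEC61G had log2 fold changes of -0.04 and -0.09. By edgeR's quasi-likelihood test with Benjamini-Hochberg adjustment, 0 of 44 genes were lower and 0 higher at an adjusted p under 0.05, where 0.182% and 2.98% of all genes were. The smallest adjusted p among the 44 was 0.0678, for SDF2L1. At an unadjusted p under 0.05, 12 were lower and 0 higher, against 8.18% and 11.3% of all genes. DESeq2 called 6 of the 44 lower, against 1.45% of all genes, and 0 higher, against 4.78%. Limma-voom called 0 of the 44 in either direction, against 0.182% of all genes lower and 2.81% higher. EdgeR also called 0 of the 44 under other settings. Of all genes, it called 0.174% lower and 2.86% higher with size factors from median ratios, and 0.108% and 4.16% with library sizes alone. It called 0.0922% lower and 2.06% higher with every gene kept, and 0.145% and 2.59% with genes at 1 CPM or more in 3 libraries. Abundant genes as a class were also lower: genes with a mean of 100 to 1000 CPM had a median log2 fold change of -0.09, and the 24 members in that class -0.24. Of all genes in that class 63.5% were below 0, so the 49% above is a low mark for abundant genes. In bulk RNA, fewer cells of a type and less RNA per cell cannot be told apart.

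In 16 of the 44 genes all 3 IRF4-overexpressing libraries were below all 3 control libraries, and in 1, DERL1, all were above. Among all genes tested, 11.9% were separated downward and 13.5% upward. Of the 16 genes, 11 also had an unadjusted p under 0.05, against 7% of all genes. In every library the 44 genes together took under 1% of the counts, at 0.865%, 0.802% and 0.793% in IRF4-overexpressing replicates 1, 2 and 3 and 0.94%, 0.921% and 0.938% in control replicates 1, 2 and 3. The groups did not overlap in this share, and IRF4-overexpressing replicate 1 lay nearest to the controls.

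**Figure D1:**
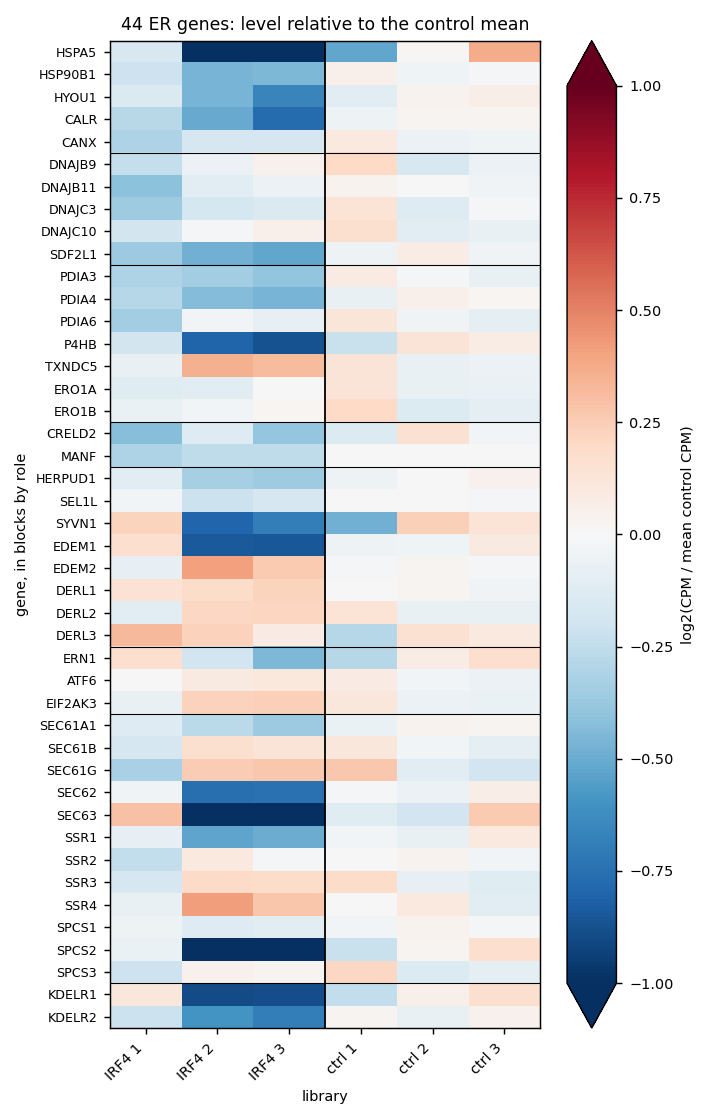
Level of each of the 44 genes (rows, in blocks by role) in each library (columns, IRF4-overexpressing left of control), as log2 of the CPM over the mean control CPM. The scale ends at -1 and 1, and HSPA5, SEC63 and SPCS2 lie beyond it in IRF4-overexpressing replicates 2 and 3. The chaperone and disulfide blocks are mostly blue in the 3 IRF4-overexpressing columns, while the sensor block is mixed.

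The unfolded protein response is known to act through short DNA elements in promoters, and an ER stress element of 1 of 2 kinds was found in 10 of the 44 genes. The ER stress element (ERSE) reads CCAAT, 9 bases of any kind, then CCACG, and is bound by NF-Y at its CCAAT end and by ATF6 or XBP1 at its CCACG end. The related ERSE-II reads ATTGG, 1 base of any kind, then CCACG. RefSeq start sites in GRCh38.p14 were listed for 39 of the 44 genes, and the 250 bases before each start were searched on both strands. An exact ERSE was found in 7 of the 39 (HSPA5, HSP90B1, CALR, CANX, PDIA6, ERO1B and CRELD2), or 17.9%, against 0.0916% of the 27305 genes with starts in the RefSeq table. An exact ERSE-II was found in 3 (HYOU1, SDF2L1 and HERPUD1), or 7.69%, against 0.0659%. The 44 genes were chosen by role and include known targets of this response. A higher share than among all genes thus follows from that choice and is not a result of these counts. A match is a description of the letters, and no binding was measured. The levels of all 10 genes are compared below. The sequences are shown for the 8 of them with a single listed start. They run 5′ to 3′ on the gene's strand, as RefSeq has it in GRCh38.p14, and hold the element with up to 20 bases on each side, or for HSPA5 the whole 250 bases. The fixed letters of the element are in capitals, and base -1 is the last before the start. A match on the opposite strand reads CGTGG before ATTGG for ERSE and CGTGG before CCAAT for ERSE-II.
HSPA5 (chr9:125241344-125241593, minus strand, ERSE from base -66): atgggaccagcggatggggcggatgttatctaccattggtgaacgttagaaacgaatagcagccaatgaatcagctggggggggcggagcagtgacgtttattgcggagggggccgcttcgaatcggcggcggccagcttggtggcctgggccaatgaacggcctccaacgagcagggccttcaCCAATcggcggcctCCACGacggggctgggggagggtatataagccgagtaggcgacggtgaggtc
HSP90B1 (chr12:103930196-103930359, plus strand, ERSE from bases -194 and -89): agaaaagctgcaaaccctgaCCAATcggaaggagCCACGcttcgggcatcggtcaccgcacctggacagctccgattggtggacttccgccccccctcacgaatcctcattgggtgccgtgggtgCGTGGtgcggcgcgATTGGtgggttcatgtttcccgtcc
CALR (chr19:12938364-12938422, plus strand, ERSE from base -225): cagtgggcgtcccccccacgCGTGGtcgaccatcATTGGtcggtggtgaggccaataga
CRELD2 (chr22:49918534-49918592, plus strand, ERSE from base -80): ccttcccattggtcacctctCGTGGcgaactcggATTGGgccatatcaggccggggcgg
ERO1B (chr1:236282163-236282208, minus strand, ERSE from base -243): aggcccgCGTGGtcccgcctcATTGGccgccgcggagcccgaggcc
HYOU1 (chr11:119057254-119057410, minus strand, ERSE-II from bases -185 and -79): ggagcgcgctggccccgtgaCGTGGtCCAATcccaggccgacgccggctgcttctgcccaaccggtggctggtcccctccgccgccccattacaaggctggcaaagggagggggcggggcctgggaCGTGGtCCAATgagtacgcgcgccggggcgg
SDF2L1 (chr22:21642094-21642144, plus strand, ERSE-II from base -188): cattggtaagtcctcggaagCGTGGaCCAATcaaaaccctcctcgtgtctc
HERPUD1 (chr16:56932005-56932055, plus strand, ERSE-II from base -117): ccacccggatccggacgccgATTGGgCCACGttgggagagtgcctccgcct

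The 5 chaperone genes had log2 fold changes below 0, with a median of -0.41, and 0 of the 5 passed the test. CALR encodes calreticulin, a lectin chaperone of the lumen that binds glycoproteins and calcium. Its levels were 873, 747 and 622 CPM in IRF4-overexpressing libraries, against 1022, 1079 and 1078 CPM in control libraries (replicates 1, 2 and 3 in this order here and throughout). The groups did not overlap (log2 fold change -0.50, SE 0.13, edgeR adjusted p = 0.116). HSP90B1, the Hsp90 of the ER, was at 375, 314 and 317 CPM in IRF4-overexpressing libraries and at 449, 421 and 429 CPM in control libraries. These too were separate (log2 fold change -0.37, SE 0.10, edgeR adjusted p = 0.122). HYOU1, a nucleotide exchange factor of the Hsp70 class, was at 139, 111 and 96.8 CPM in IRF4-overexpressing libraries and at 142, 157 and 160.3 CPM in control libraries. Its highest IRF4-overexpressing library lay just under its lowest control library (log2 fold change -0.41, SE 0.14, edgeR adjusted p = 0.202).

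CANX, the membrane-bound partner of calreticulin and the most abundant of the 44 by CPM, was at 1308, 1443 and 1440 CPM in IRF4-overexpressing libraries and at 1737, 1554 and 1574 CPM in control libraries. The groups were separate, but the difference was the smallest among the chaperones (log2 fold change -0.22, SE 0.09, edgeR adjusted p = 0.262). Per kilobase of deposited gene width, CALR had the highest level of the 44, at 391 CPM per kilobase in IRF4-overexpressing libraries and 554 in control libraries, and CANX followed at 272 and 316. HSPA5 encodes BiP, the Hsp70 of the ER that also holds the stress sensors inactive. It was at 499, 86.8 and 95.8 CPM in IRF4-overexpressing libraries, against 389, 561 and 723 CPM in control libraries. Only IRF4-overexpressing replicates 2 and 3 were below the controls, and replicate 1 lay within them. Its log2 fold change of -1.30 was the largest of the 44 in size and had the largest standard error (SE 0.69, edgeR adjusted p = 0.321). Without single libraries it ran from -2.62 to -0.88, and it was -2.62 without IRF4-overexpressing replicate 1.

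Of the 5 genes for cofactors of BiP, all had log2 fold changes below 0 and SDF2L1 stood out. SDF2L1 binds J-domain proteins of the ER and is strongly induced in ER stress. It was at 15.3, 14.1 and 13.7 CPM in IRF4-overexpressing libraries, against 19.0, 20.7 and 19.2 CPM in control libraries. The gap between the groups was wider than the range within either (log2 fold change -0.45, SE 0.10, edgeR adjusted p = 0.0678, DESeq2 adjusted p = 0.00656). DNAJC10, a J-domain protein that also reduces disulfides and the most abundant of these genes, was at 233, 262 and 273 CPM in IRF4-overexpressing libraries and at 296, 245 and 251 CPM in control libraries, which overlapped. The J-domain genes DNAJC3, DNAJB11, DNAJB9 and DNAJC10 had log2 fold changes of -0.22, -0.19, -0.08 and -0.05. DNAJC3 and DNAJB11 were separate between the groups, and DNAJB9, whose product helps to keep IRE1 inactive, overlapped. The signs of DNAJB9 and DNAJC10 changed with library sizes alone (0.01 and 0.05).

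Of 7 genes of disulfide bond formation, 6 had log2 fold changes below 0 and 0 passed the test, and PDIA3 and PDIA4 were separate between the groups. PDIA4 was at 346, 312 and 305 CPM in IRF4-overexpressing libraries, against 400.3, 435 and 427 CPM in control libraries. PDIA3, which works with calnexin and calreticulin on glycoproteins, was at 337, 327 and 317 CPM in IRF4-overexpressing libraries, against 441, 414 and 395 CPM in control libraries. In both genes the groups were clearly separate, with log2 fold changes of -0.39 (SE 0.09, edgeR adjusted p = 0.0791) and -0.35 (SE 0.08, edgeR adjusted p = 0.0859). By DESeq2 their adjusted p were 0.0126 and 0.00858. A near-identical copy of PDIA3, PDIA3P1, has its own row and was at 91.6 ± 3.81 CPM in IRF4-overexpressing libraries and 117 ± 6.3 CPM in control libraries (SD, n = 3 each). How reads were split between PDIA3 and PDIA3P1 is not known, so their single values are uncertain.

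P4HB, the founding protein disulfide isomerase, was at 269, 175 and 167 CPM in IRF4-overexpressing libraries and at 262, 333 and 321 CPM in control libraries. IRF4-overexpressing replicate 1 lay inside the control range and replicates 2 and 3 far below it (log2 fold change -0.58, SE 0.20, edgeR adjusted p = 0.193). PDIA6, the most abundant of this group by CPM, was at 412, 514 and 494 CPM in IRF4-overexpressing libraries and at 568, 510 and 493 CPM in control libraries, which overlapped (log2 fold change -0.15). TXNDC5, a relative with thioredoxin domains, was the one gene of the group above its control level, at 279, 376 and 365 CPM in IRF4-overexpressing libraries and at 320, 279 and 281 CPM in control libraries. Its excess came from IRF4-overexpressing replicates 2 and 3 (log2 fold change 0.21, SE 0.14, edgeR adjusted p = 0.382). ERO1A and ERO1B, the oxidases that recharge these isomerases, had log2 fold changes of -0.08 and -0.02. ERO1B, the weakest of the group, was at 19.8, 20.4 and 21.0 CPM in IRF4-overexpressing libraries, inside its control values of 23.8, 18.9 and 19.5 CPM. With library sizes alone both oxidase genes had positive values, 0.02 and 0.07.

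MANF and CRELD2 encode small ER proteins that are secreted in ER stress. MANF was at 37.2, 38.6 and 38.6 CPM in IRF4-overexpressing libraries, against 46.3, 46.1 and 45.9 CPM in control libraries. Its libraries lay close together within each group, and the groups were separate (log2 fold change -0.27, SE 0.08, edgeR adjusted p = 0.139, DESeq2 adjusted p = 0.0472). Without single libraries its log2 fold change ran from -0.28 to -0.26. CRELD2 was at 9.74, 12.0 and 9.99 CPM in IRF4-overexpressing libraries and at 11.9, 14.5 and 12.8 CPM in control libraries. The groups overlapped by a narrow margin (log2 fold change -0.30, SE 0.13, edgeR adjusted p = 0.266).

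**Figure D2:**
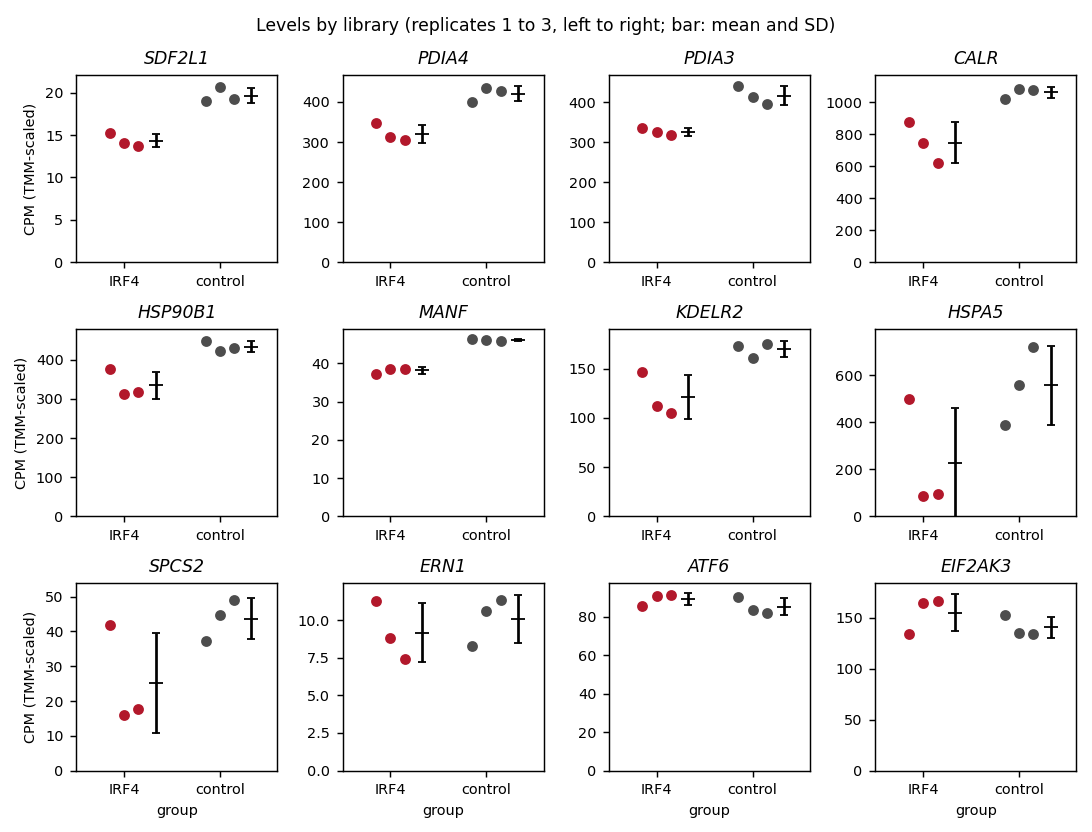
TMM-scaled CPM of 12 of the genes in each library, IRF4-overexpressing left of control, with points for replicates 1 to 3 and a bar for the mean and SD of each group (the lower end for HSPA5 is cut off at 0). SDF2L1, PDIA4, PDIA3, CALR, HSP90B1, MANF and KDELR2 are separate between the groups, HSPA5 and SPCS2 are low in IRF4-overexpressing replicates 2 and 3 only, and the sensors ERN1, ATF6 and EIF2AK3 overlap.

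The 8 genes of ER-associated degradation did not move one way: 4 were below and 4 above their control level, with a median log2 fold change of -0.01. HERPUD1, a stress-induced membrane scaffold of the degradation complex, was at 96.5, 82.9 and 81.5 CPM in IRF4-overexpressing libraries, against 101, 104 and 107 CPM in control libraries. The groups were separate (log2 fold change -0.26, SE 0.10, edgeR adjusted p = 0.228). SEL1L, the adaptor of the ubiquitin ligase SYVN1, was separate as well with a smaller difference (log2 fold change -0.13). SYVN1 was at 94.5, 46.9 and 50.2 CPM in IRF4-overexpressing libraries and at 58.1, 96.0 and 89.4 CPM in control libraries. In each group the libraries on side A were the low ones, and within side B the log2 difference was 0.03.

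EDEM1, a mannose-trimming lectin that marks glycoproteins for degradation and the most abundant gene of this set, was at 225, 112 and 111 CPM in IRF4-overexpressing libraries and at 194, 195 and 213 CPM in control libraries. Its IRF4-overexpressing libraries lay on both sides of the controls (log2 fold change -0.42, SE 0.28, edgeR adjusted p = 0.388). Its relative EDEM2 had a log2 fold change of 0.21. The derlins, membrane proteins of the export channel, all had log2 fold changes above 0, at 0.18 for DERL1, 0.11 for DERL2 and 0.22 for DERL3. DERL1 was at 104, 107 and 110.0 CPM in IRF4-overexpressing libraries, against 94.4, 96.1 and 91.8 CPM in control libraries. It was the one gene of the 44 whose groups were separate upward, and it did not pass (SE 0.08, edgeR adjusted p = 0.27). DERL3, the weakest of the 44 by mean CPM over all 6 libraries (ERN1 was weaker in the IRF4-overexpressing ones), was at 10.1, 9.53 and 8.58 CPM in IRF4-overexpressing libraries and at 6.65, 9.04 and 8.67 CPM in control libraries, which overlapped.

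The stress sensors showed no separation of the groups. ERN1 was at 11.3, 8.83 and 7.40 CPM in IRF4-overexpressing libraries and at 8.29, 10.6 and 11.4 CPM in control libraries. ATF6 was at 85.4, 90.6 and 91.3 CPM in IRF4-overexpressing libraries and at 90.1, 83.3 and 81.8 CPM in control libraries. EIF2AK3 was at 134, 165 and 166 CPM in IRF4-overexpressing libraries and at 153, 135 and 134 CPM in control libraries. In each of these genes the groups overlapped, and the log2 fold changes were -0.14 (SE 0.20), 0.07 (SE 0.09) and 0.14 (SE 0.12), with edgeR adjusted p of 0.672, 0.645 and 0.478. The sign of ERN1 changed with the library axis as a term (0.003). The sensors act through splicing, cleavage and phosphorylation, which gene counts do not show.

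Among the regulators below the sensors, XBP1 was at 171, 220.0 and 218 CPM in IRF4-overexpressing libraries and at 186, 164 and 165 CPM in control libraries. Its groups overlapped (log2 fold change 0.24, SE 0.12, edgeR adjusted p = 0.308), and counts per gene do not tell its spliced from its unspliced mRNA. ATF4, the factor whose translation rises when PERK is active, had a log2 fold change of -0.08, and with library sizes alone 0.02. DDIT3, the stress-induced factor also called CHOP, had 0.19 (SE 0.15), and PPP1R15A, which ends the PERK response, 0.15 (SE 0.10). ATF6B, the relative of ATF6, had -0.32 (SE 0.28). In DDIT3 and ATF6B the sides of the library axis had opposite signs. Log2 differences were 0.21 and -0.08 for DDIT3, and -0.33 and 0.07 for ATF6B (side A, then side B). PPP1R15B had the smallest p of the 13 regulators tested (log2 fold change -0.23, edgeR adjusted p = 0.28), and 0 of the 13 passed.

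The 12 genes of translocation and signal peptide removal had values of both signs within single complexes, with a median log2 fold change of -0.07. SEC61A1, the channel itself, was at 268, 243 and 228 CPM in IRF4-overexpressing libraries, against 280.2, 301 and 299 CPM in control libraries, and the groups were separate (log2 fold change -0.25, SE 0.09, edgeR adjusted p = 0.215). Its small partners SEC61B and SEC61G had log2 fold changes of 0.05 and 0.09, with overlapping groups, and both signs changed with the library axis as a term (-0.04 and -0.09). SEC62 and SEC63, which couple the channel to BiP and to import after translation, were both low in IRF4-overexpressing replicates 2 and 3. SEC62 was at 281, 171 and 172 CPM in IRF4-overexpressing libraries and at 286, 276 and 302 CPM in control libraries (log2 fold change -0.47, SE 0.20, edgeR adjusted p = 0.259). SEC63 was at 125, 47.4 and 50.4 CPM in IRF4-overexpressing libraries and at 93.8, 89.2 and 122 CPM in control libraries. Here IRF4-overexpressing replicate 1 was the highest library of all (log2 fold change -0.46, SE 0.38, edgeR adjusted p = 0.476).

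The translocon-associated complex of SSR1 to SSR4 also held values of both signs. SSR1 was at 273, 201 and 205 CPM in IRF4-overexpressing libraries, against 284, 274 and 309 CPM in control libraries, and the groups were separate by under 1 CPM (log2 fold change -0.35, SE 0.14, edgeR adjusted p = 0.232). SSR2 and SSR3 had log2 fold changes of -0.04 and 0.08. SSR4, with SPCS2 the weakest of the 12 genes by mean CPM over all 6 libraries, was at 30.0, 42.3 and 38.3 CPM in IRF4-overexpressing libraries and at 31.6, 33.9 and 29.4 CPM in control libraries, and overlapped (log2 fold change 0.22). Of the signal peptidase genes, SPCS3, the most abundant of the 12, was at 351, 418 and 414 CPM in IRF4-overexpressing libraries and at 469, 369 and 379 CPM in control libraries, also overlapping. SPCS1 and SPCS3 had log2 fold changes of -0.09 and -0.04. SPCS2 was at 41.8, 16.0 and 17.6 CPM in IRF4-overexpressing libraries and at 37.4, 44.6 and 49.0 CPM in control libraries. As with HSPA5, IRF4-overexpressing replicate 1 lay within the controls and replicates 2 and 3 well below (log2 fold change -0.80, SE 0.37, edgeR adjusted p = 0.279).

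KDELR1 and KDELR2 encode receptors that return escaped chaperones from the Golgi. KDELR2 was at 147, 112 and 105 CPM in IRF4-overexpressing libraries, against 173, 161 and 176 CPM in control libraries. The groups were separate (log2 fold change -0.49, SE 0.14, edgeR adjusted p = 0.14). KDELR1 was at 47.0, 23.3 and 23.5 CPM in IRF4-overexpressing libraries and at 36.7, 45.1 and 48.6 CPM in control libraries. Its groups overlapped through IRF4-overexpressing replicate 1 (log2 fold change -0.48, SE 0.29, edgeR adjusted p = 0.364).

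**Figure D3:**
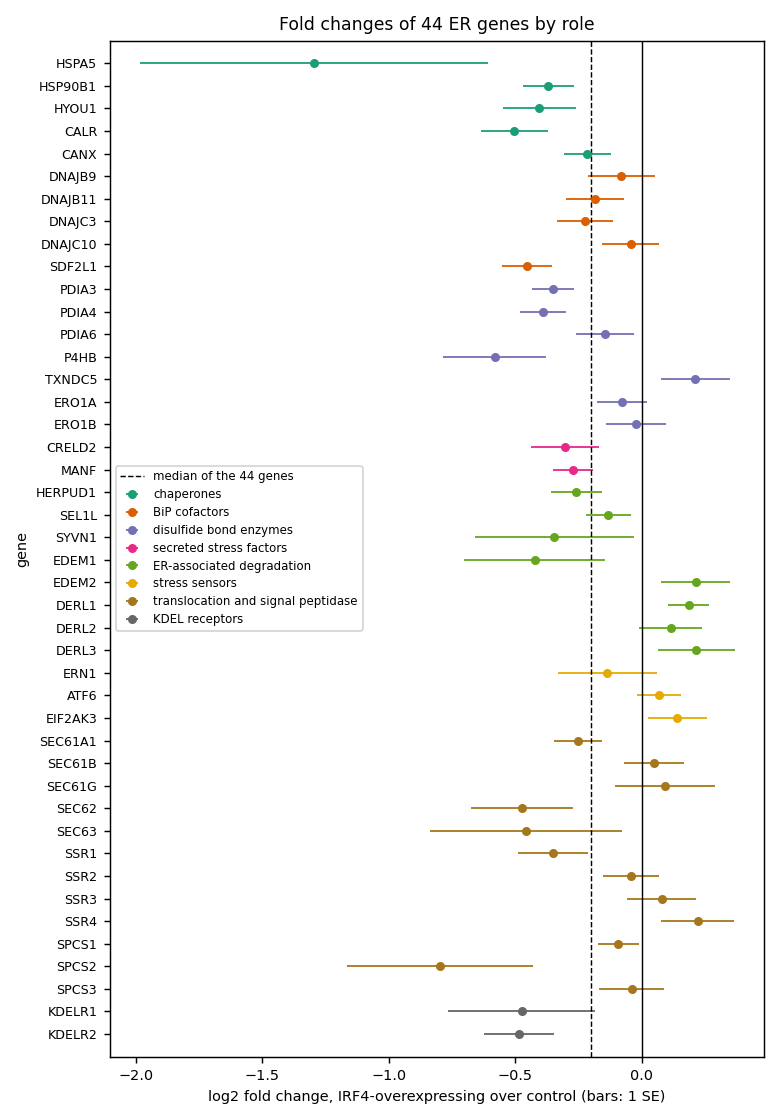
Log2 fold change of IRF4-overexpressing over control for each of the 44 genes, coloured by role, with bars of 1 SE and a dashed line at their median of -0.20. Chaperones and KDEL receptors lie left of 0, the derlins and 2 of the 3 sensors right of it, and HSPA5, SEC63, SPCS2, SYVN1, EDEM1 and KDELR1 have the widest bars.

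The spread among the 3 IRF4-overexpressing libraries set the precision of many of these genes. In 10 of the 44 the highest IRF4-overexpressing library was over 1.5 times the lowest, led by HSPA5 at 5.75 times, SEC63 at 2.63 and SPCS2 at 2.61. Among control libraries 2 genes spread that far. The share of all genes tested with such a spread was not counted, so it is not known to be particular to these genes. In 20 genes IRF4-overexpressing replicates 2 and 3 were both below the other 4 libraries, and in 8 both were above them, against 30.1% and 29.6% of all genes tested. Within side A, HSPA5, SPCS2 and SEC63 had log2 differences of -2.09, -1.13 and -0.93, and within side B -0.35, -0.16 and 0.25. EDEM1, SEC62, KDELR1 and P4HB had -0.79, -0.74, -0.64 and -0.61 within side A, and 0.14, -0.04, 0.0071 and -0.28 within side B. The smallest p-values belonged to genes with values below 0 on both sides, where log2 differences were -0.44 and -0.38 for SDF2L1, -0.38 and -0.32 for PDIA4, -0.58 and -0.30 for CALR, and -0.26 and -0.30 for MANF (side A, then side B). In all, 28 of the 44 genes were lower on both sides and 3 higher, against 34.2% and 29.2% of all genes tested. In the other 13 the sides had opposite signs: SEC63, EDEM1, SYVN1, KDELR1, ERN1 and ERO1B were below 0 on side A and above it on side B, and TXNDC5, EDEM2, DERL2, EIF2AK3, SEC61B, SSR2 and SSR4 were above 0 on side A and below it on side B. The 5 chaperone genes and the 5 cofactor genes were lower on both sides, as were 5 of the 7 disulfide genes, while 2 of the 8 degradation genes and 0 of the 3 sensors were.

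With the library axis as a term in edgeR's test, 9 of the 44 genes were lower at an adjusted p under 0.05 (HSP90B1, CALR, CANX, DNAJC3, SDF2L1, PDIA3, PDIA4, P4HB and MANF), against 3.22% of all genes, and 0 were higher, against 5.87%. The sides were read from these counts, so the p-values of that fit are too small. The 6 genes that DESeq2 called without the term, SDF2L1, PDIA3, PDIA4, CALR, MANF and HSP90B1, are among these 9. Without IRF4-overexpressing replicate 1, 20 of the 44 were lower and 4 higher, against 25.1% and 19.9% of all genes, and in that fit both remaining IRF4-overexpressing libraries lie on side A. Without any of the other 5 libraries, 0 of the 44 were called. All genes called were then 1.02%, 0.975% and 1.11% higher and 0.0244%, 0.0244% and 0.0245% lower without control replicates 1, 2 and 3, and 1.25% and 1.28% higher and 0.0245% and 0.0246% lower without IRF4-overexpressing replicates 2 and 3. With the replicate numbers as a block, 0 of the 44 were called, against 0% of all genes lower and 0.0248% higher.

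**Figure D4:**
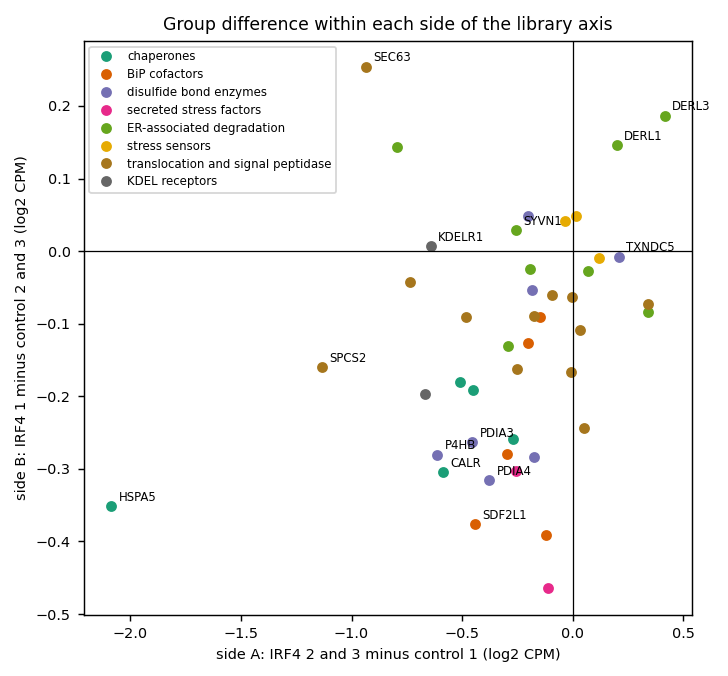
Difference in log2 CPM (with 0.5 CPM added) between IRF4-overexpressing and control libraries within side A (horizontal axis, IRF4-overexpressing replicates 2 and 3 minus control replicate 1) and within side B (vertical axis, IRF4-overexpressing replicate 1 minus control replicates 2 and 3), 1 point a gene, coloured by role. SDF2L1, PDIA4, PDIA3 and CALR lie low on both axes, HSPA5 and SPCS2 are far lower on side A, and SEC63 is lower on side A and higher on side B.

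Set against the elements in their promoters, all 10 genes with an exact ERSE or ERSE-II had a log2 fold change below 0, from -1.30 for HSPA5 to -0.02 for ERO1B (0.07 with library sizes alone), with a median of -0.34. Of the 29 genes with a listed start and neither element, 20 were below 0 and 9 above, with a median of -0.13. Within the sides of the axis the 10 genes had medians of -0.37 (side A) and -0.27 (side B), and the 29 genes -0.19 and -0.08. PDIA4 and P4HB, among the lowest of the 44, held neither element in the bases searched, and PDIA3 and KDELR2 had no start listed. Outside the 44, the 10 tested genes with an exact ERSE had a median log2 fold change of 0.10 and the 12 with an exact ERSE-II -0.07. The XBP1 motif TGACGTGG was in 6 of the 39 genes, or 15.4%, against 0.78% of all genes, and these 6 were HYOU1, DNAJC10, TXNDC5, SEC62, SSR3 and SSR4. The higher share may again follow from the choice of the 44 genes. The 6 genes ran from -0.47 for SEC62 to 0.22 for SSR4. In HYOU1 a TGACGTGG match overlaps an ERSE-II match.

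**Figure D5:**
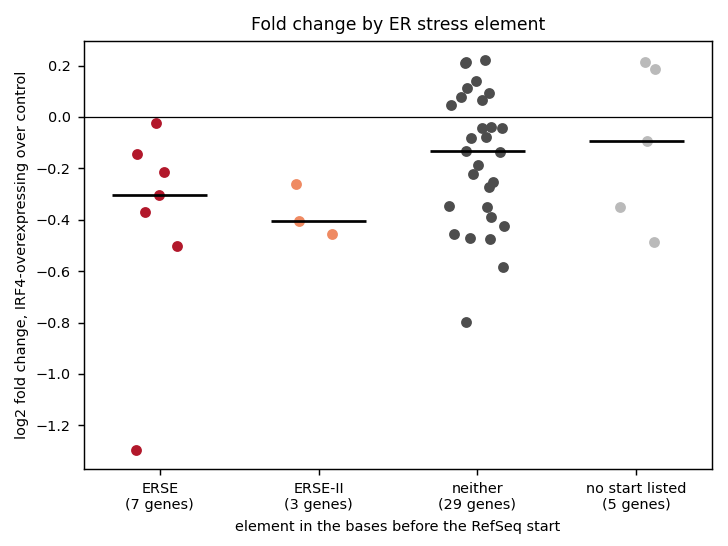
Log2 fold change of IRF4-overexpressing over control for the 44 genes, grouped by the element found in the 250 bases before their RefSeq starts, 1 point a gene with a line at each median. The 7 ERSE genes and 3 ERSE-II genes lie at or below -0.02, while the 29 genes with neither run from -0.80 to 0.22, and 5 genes had no start listed.

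Other genes of the secretory pathway, from lists written alongside the 44, had a median nearer to that of all genes. Of 137 such genes found in the table, 133 were tested, and 0 were lower and 0 higher by edgeR's adjusted p. At an unadjusted p under 0.05, 15 of the 133 were lower and 3 higher, where 8.18% and 11.3% of all genes were. Their median log2 fold change was -0.06. Among 23 other folding genes the median was 0.00. SIL1, a nucleotide exchange factor for BiP, was at 9.19, 12.1 and 11.2 CPM in IRF4-overexpressing libraries, against 7.32, 7.70 and 6.70 CPM in control libraries. Its groups were separate upward, opposite to HYOU1, the other exchange factor (log2 fold change 0.58, SE 0.14, edgeR adjusted p = 0.0855). SIL1 was called higher by DESeq2 (adjusted p = 0.0152), and by edgeR with the axis term (adjusted p = 0.0432) or library sizes alone (adjusted p = 0.0487). DNAJC1, a membrane J-domain protein, had 0.41.

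Export from the ER was the list nearest to the 44 genes, with 18 of 22 tested genes below 0 and a median of -0.13, and ARCN1, a subunit of the COPI coat, and SAR1B, the GTPase of the COPII coat, had the smallest p (log2 fold changes -0.30 and -0.25). Medians were 0.03 for 18 other degradation genes, led by UBE2J1 at -0.29 and NPLOC4 at -0.26, and 0.02 for 26 genes of N-glycosylation, led by STT3A and ALG1 at -0.20 each. They were -0.08 for 13 genes of signal recognition and peptidase and -0.08 for 16 genes of membrane insertion. In these lists SEC61A2 had 0.41, SRP72 -0.46, GET4 -0.38 and EMC6 -0.35. Of the immunoglobulin list only JCHAIN, the joining chain of secreted antibody, and IGLL5 were found. The heavy and light chain genes on the list had no row, so the main antibody cargo was not measured. JCHAIN was at 946, 1332 and 1350 CPM in IRF4-overexpressing libraries and at 1309, 1052 and 1064 CPM in control libraries. These groups overlapped (log2 fold change 0.08, SE 0.17, edgeR adjusted p = 0.766), as did those of IGLL5 (0.03).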

How the data were processed

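RNA from 6 Raji samples was made into stranded, poly(A)-selected libraries, per the labels' protocols. The authors deposited raw read counts per Entrez gene, 1 column a library, and 1 width per gene. The submitters' processing notes name the builds mm9 and hg19; the aligner, counter, annotation and strand setting are not given in the sources used here, so overlapping and antisense genes cannot be told apart. No coordinates are given for the counts. Symbols (23308 rows matched) and promoter sequences came from RefSeq tables of GRCh38.p14.

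The counts were tested with edgeR 4.0.16 (R 4.3.3): TMM, filterByExpr, group-only design, two-sided quasi-likelihood F-test, adjusted over 12079 genes. SE is the absolute log2 fold change over the root of F. DESeq2 1.42.0 and limma 3.58.1 (voom) were alternatives, with other scalings, filters, a replicate block, a library axis term and leaving out each library. Side differences use log2(CPM + 0.5). The genes and lists were chosen with earlier results of these data known. All 44 genes are named. Outside them are named IRF4, PDIA3P1, XBP1, ATF4, DDIT3, PPP1R15A, ATF6B, and the 2 smallest p of each list; PDIA3P1 was chosen after its values were seen. The test was checked on simulated counts, which held no library axis. It recovered 25.4% of 1.5-fold, 82.1% of 2-fold and 100% of 4-fold changes, and 4 of its 142 calls were false. In the simulation it thus missed most 1.5-fold changes and some 2-fold ones. Genes that spread along the axis can be missed at larger changes: mean CPM of HSPA5 was lower by 59.2%, and it was not called. Replicates differed by more than sampling noise (chi-square per gene 6.48 to 185). Of the immunoglobulin list, 2 genes were found in the table.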

Additional observations from a re-analysis of the deposited data

How the results depend on the processing

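Of the 44 genes, 0 were called in either direction with median-ratio size factors, library sizes alone, both other filters, limma-voom and the replicate block. Lower genes among them numbered 6 with DESeq2 and 9 with the library axis term. Without single libraries, lower ones numbered 0 to 20 and higher ones 0 to 4, and all calls came without IRF4-overexpressing replicate 1. The median log2 fold change of the 44 genes was -0.10 with library sizes alone, -0.20 within side A, -0.10 within side B (where 1 IRF4-overexpressing library was compared), and -0.22 to -0.18 without single libraries. Over all genes tested, 360 were higher and 22 lower, against 577 and 175 with DESeq2, 709 and 389 with the axis term, and 503 and 13 with library sizes alone. Without single libraries 120 to 2436 were higher and 3 to 3071 lower. The cause was not tested. Of the pathway genes outside the 44, 1 was higher with library sizes alone, 1 higher and 1 lower with DESeq2, and 1 higher and 2 lower with the axis term (the higher one SIL1 each time), and 0 to 23 higher and 0 to 38 lower without single libraries. IRF4 ran from 6.58 to 6.79 without single libraries.

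Signs changed for the following genes. With library sizes alone the log2 fold change of DNAJB9 was 0.015, of DNAJC10 0.051, of ERO1A 0.018, of ERO1B 0.072, of SSR2 0.052, of SPCS1 0.0013, of SPCS3 0.055 and of ATF4 0.018. With the axis term that of ERN1 was 0.0034, of SEC61B -0.038, of SEC61G -0.086, of SSR3 -0.032 and of JCHAIN -0.063. Within side B, EDEM1 had 0.14, SEC63 0.25, SYVN1 0.029, KDELR1 0.0071, ERN1 0.042, ERO1B 0.049 and ATF6B 0.070. There TXNDC5 had -0.008, EDEM2 -0.083, DERL2 -0.027, EIF2AK3 -0.0093, SEC61B -0.11, SEC61G -0.17, SSR3 -0.063 and SSR4 -0.073. DDIT3 had -0.080 and JCHAIN -0.16 on that side. Within side A, SSR2 had 0.050, SEC61G -0.0051 and SSR3 -0.00097. Without single libraries it ran from -0.16 to 0.019 for DNAJB9, -0.10 to 0.035 for DNAJC10, -0.092 to 0.082 for ERO1B, -0.32 to 0.0078 for ERN1, -0.0091 to 0.13 for SEC61B, -0.0065 to 0.25 for SEC61G, -0.12 to 0.036 for SSR2, -0.11 to 0.067 for SPCS3, -0.0031 to 0.22 for JCHAIN and -0.041 to 0.091 for IGLL5.

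The replicate numbers are shared between groups, but same-numbered libraries deviated in opposite ways (correlations -0.65, -0.22 and -0.47), and none correlated best with its own number. With the replicate block, 3 genes were higher and 0 lower. The 44 genes had means of 8.77 to 1509 CPM, and the lowest count of any of them in a library was 243.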
